A study of Oryza sativa with 6 samples.

Results

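The 69 probes described here measured 63 rice genes for calcium sensors and calcium-dependent protein kinases, out of 22575 spots on the array. A probe belongs here when its only annotated gene has a synonym of CIPK, CBL, CPK, CDPK, CML or CAM followed by a number. No measured value enters this rule, but the group was chosen with earlier results of these data known. The rule matched 92 genes of the rice gene table, so 63 of them had a probe here. They comprise 23 CIPK genes (27 probes), 6 CBL genes (6 probes), 11 CPK genes (13 probes), 3 calmodulin or CAM genes (3 probes) and 20 CML genes (20 probes). Of the 69 probes, 68 were tested. The remaining one, for OsCPK29, was listed at exactly 0 on all 6 arrays.

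Calcium is a messenger in plant cells: dehydration, salt and cold each raise its level in the cytosol for a short time, and proteins with EF-hand loops bind it. Calmodulins (CAM) and calmodulin-like proteins (CML) are sensors without enzyme activity that bind and switch other proteins. Calcineurin B-like proteins (CBL) are sensors that recruit and activate the CBL-interacting protein kinases (CIPK), often at a membrane. Calcium-dependent protein kinases (CPK, also called CDPK) hold the sensor and the kinase in the same chain. In leaves these proteins act on ion channels, transporters, oxidases and transcription factors that take part in stomatal closure and in responses to abscisic acid.

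Leaves of 2 rice genotypes were measured, Apo, described by the submitters as drought tolerant, and IR64, described as drought susceptible. Greenhouse plants were left without water from day 33 after sowing, for 5 days by the sample labels or 6 days by the series text, and control plants of the same genotype were kept watered and harvested on day 37. Each of the 6 two-colour arrays, 3 per genotype, carried control RNA labelled with Cy5 and drought RNA labelled with Cy3, and no array exchanged the dyes. Nothing in the labels says whether replicates were separate plants, so the p-values measure the spread between these arrays, which may be technical.

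The values are log ratios within each array as the authors deposited them, taken here as log10 because that is the base the scanner software writes. Which RNA is the numerator is not stated in the sources used here, so a ratio is called positive or negative, not induced or repressed. For orientation, the dehydrin RAB16C, a protein of dehydrated tissue, stood at 1.72 ± 0.107 in Apo and 1.43 ± 0.210 in IR64 (mean ± SD, n = 3). The light-harvesting gene CAB2R stood at -1.12 ± 0.266 and -1.22 ± 0.199. Another such gene, CAB1R, was nearer to 0, at -0.2375 ± 0.282 and -0.0722 ± 0.159, and was positive on IR64 replicate 3 (0.0672). Members with positive ratios were thus on the side of RAB16C. The intensities of the channels are not analysed here, so a probe's distance from background is unknown, and ratios carry no level by which the labelled tissue could be checked. Leaf RNA is a mixture, so fewer cells of a type and less RNA per cell cannot be told apart. A dye effect and a difference in age at harvest would remain in every ratio of a genotype.

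The IR64 replicate 1 array stood apart from the other IR64 arrays. Over the 68 tested members, it correlated with the Apo arrays at 0.868 to 0.940 and with IR64 replicates 2 and 3 at 0.783 to 0.812, while the latter correlated with each other at 0.962. These correlations are over probes that share the same 6 arrays and are a description only. The ratio on IR64 replicate 1 was nearer to the Apo mean than to the mean of IR64 replicates 2 and 3 for 45 of the 68 members, or 66.2%, against 62.3% of all 17727 tested probes. Whether the label, the plants or the handling of this array account for its position was not tested, and its IR64 label is kept as given. Named IR64 calls that changed without it, and called IR64 means that it moved by over 1.5 times, are given both ways.

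Members were called positive or negative by limma over all 17727 tested probes at a Benjamini-Hochberg adjusted p under 0.05. In Apo, 41 members were called, or 60.3% against 50.1% of all tested probes. Of the 68, 26.5% (18) were positive, against 24.5% of all tested probes, and 33.8% (23) negative, against 25.6%. In IR64, 38 were called, or 55.9% against 43.0%. There 20.6% (14) were positive, against 22.7%, and 35.3% (24) negative, against 20.2%. Both genotypes were positive for 13 members, or 19.1% against 15.7% of all tested probes, and both negative for 18, or 26.5% against 15.1%. No member was called on opposite sides in the genotypes, against 0.558% of all tested probes, and 20 were called in neither, or 29.4% against 38.2%. For the mean of both genotypes 50 members were called, or 73.5% against 58.1%, with 19 positive and 31 negative, where 29.3% and 28.8% of all tested probes were called. On all 6 arrays, 17 members were positive, or 25.0% against 23.9% of all tested probes, and 27 negative, or 39.7% against 24.0%.

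The size and the arrays behind these calls varied. At 2-fold or more, if the base is 10, 23 members were called in Apo, or 33.8% against 23.6% of all tested probes, 19 in IR64, or 27.9% against 17.7%, and 19 for the mean, or 27.9% against 19.7%. Without IR64 replicate 1, 38 members were called in IR64 as before, or 55.9% against 47.7%, and 35 of them were called with it too, each with the same sign. The IR64 count was 27 without IR64 replicate 2, or 39.7% against 28.6%, and 25 without IR64 replicate 3, or 36.8% against 29.7%. In a fit with the replicate number as block, 44 members were called in IR64, or 64.7% against 48.7%. Fitted on the IR64 arrays alone, 20 members were called in IR64, or 29.4% against 30.1%. The 18 IR64 calls lost there included OsCIPK1 (adjusted p = 0.0963), OsCIPK24 (0.0643) and OsCPK20 (0.0914). Fitted on the Apo arrays alone, 38 members were called in Apo, or 55.9% against 51.2%. The Apo calls lost there were OsCIPK16 (adjusted p = 0.0800), OsCML11 (0.0943) and OsCPK21 (0.0603).

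**Figure D1:**
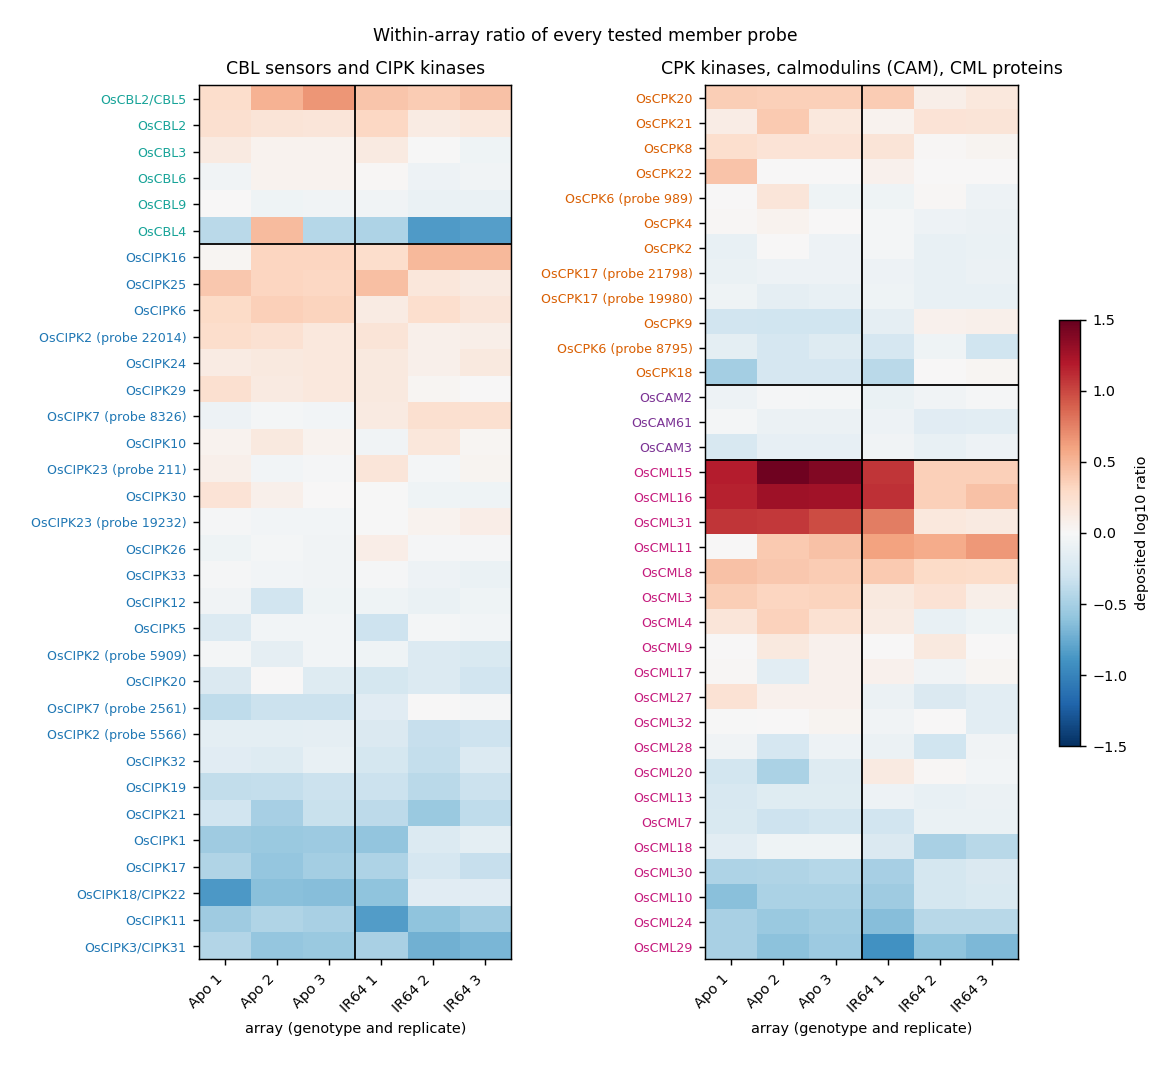
Deposited log10 ratio of each of the 68 tested member probes (rows, ordered within each subfamily by the mean over the 6 arrays) on each array (columns), red for positive and blue for negative. OsCML15, OsCML16 and OsCML31 are the darkest red rows on the Apo arrays and IR64 replicate 1 and paler on IR64 replicates 2 and 3.

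**Figure D2:**
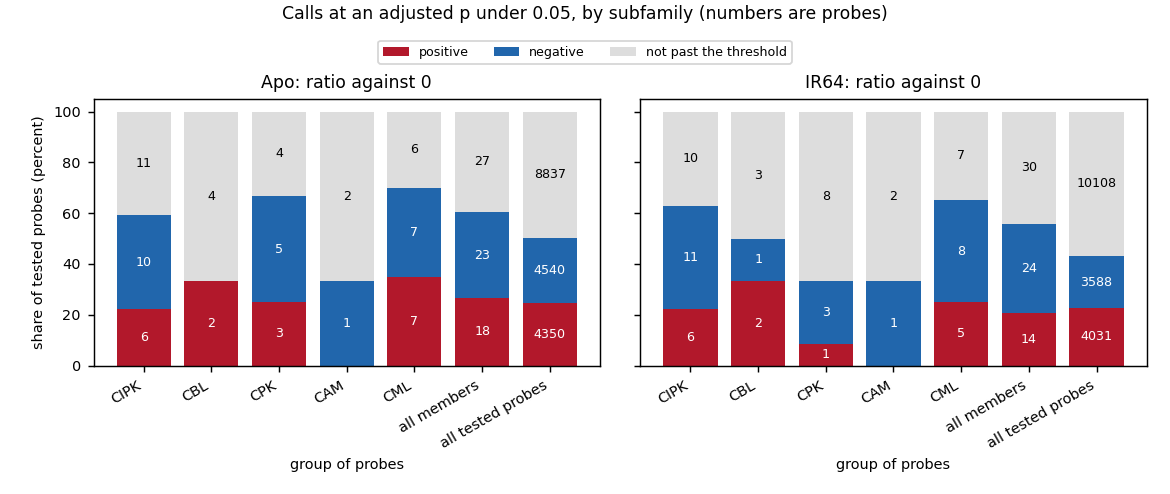
Share of tested probes called positive, called negative or not past the threshold (percent, vertical axis) for each subfamily, for all 68 members and for all 17727 tested probes, in Apo (left) and IR64 (right), with the number of probes printed in each bar. In Apo CML probes were called in 70.0% of cases, CPK in 66.7%, CIPK in 59.3%, and CBL and CAM in 33.3% each, against 50.1% of all tested probes. In IR64 the shares were 65.0% for CML, 63.0% for CIPK, 50.0% for CBL and 33.3% each for CPK and CAM, against 43.0%.

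Among the sensors that recruit CIPK kinases, the 6 CBL probes included 2 that were positive in both genotypes. Their share was 33.3%, against 15.7% of all tested probes, and none was negative in both, against 15.1%. With 6 probes these shares are not read as a trait of the subfamily. OsCBL2/CBL5 (LOC4325962, which the gene table lists under both names) had ratios of 0.269, 0.526 and 0.658 on the Apo arrays and 0.413, 0.381 and 0.434 on the IR64 arrays. The genotypes overlapped, and limma gave an adjusted p = 0.00154 in Apo and 0.00404 in IR64. The other CBL2 gene (LOC4352701) had lower ratios, 0.244, 0.197 and 0.184 in Apo and 0.307, 0.123 and 0.155 in IR64, also past the threshold in both (adjusted p = 0.00671 and 0.0109). Its IR64 call was lost when the IR64 arrays were fitted alone (adjusted p = 0.0571). In Arabidopsis, CBL2 sits at the vacuolar membrane.

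OsCBL4, whose Arabidopsis namesake SOS3 acts in salt tolerance, was the most negative CBL probe. It had ratios of -0.461, -0.852 and -0.824 on the IR64 arrays, with a mean of -0.712 ± 0.218 (adjusted p = 0.0197). On the Apo arrays it had -0.410, 0.469 and -0.425, so replicate 2 lay on the other side of 0 from the remaining arrays. The Apo mean of -0.122 ± 0.512 was not past the threshold (adjusted p = 0.601), but it was without Apo replicate 2 (adjusted p = 0.0241). The IR64 call was lost without IR64 replicate 2 (adjusted p = 0.104) or IR64 replicate 3 (0.0947). OsCBL3, OsCBL6 and OsCBL9 had means between -0.0811 and 0.0820 and were called in neither genotype, although OsCBL9 was negative in IR64 without IR64 replicate 1 (0.0390) and with the replicate block (0.0494).

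The CIPK kinases, the partners that CBL sensors switch on, had more negative than positive calls. In Apo 6 of 27 probes were positive and 10 negative, or 22.2% and 37.0%, against 24.5% and 25.6% of all tested probes. In IR64 6 were positive and 11 negative, or 22.2% and 40.7%, against 22.7% and 20.2%. The median ratio over CIPK probes was below 0 on every array, between -0.0682 and -0.0409, while the median over all tested probes lay between -0.000962 and 0. Both genotypes were negative for 9 CIPK probes and positive for 5, or 33.3% and 18.5% against 15.1% and 15.7%, while 8 were called in neither, or 29.6% against 38.2%.

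OsCIPK3/CIPK31 (LOC4332665, also listed as OsCK1) and OsCIPK11 had the most negative CIPK means over the 6 arrays, -0.579 and -0.577. OsCIPK3/CIPK31 stood at -0.439, -0.584 and -0.560 in Apo and -0.482, -0.719 and -0.690 in IR64, with an adjusted p = 0.00042 and 0.000283. OsCIPK11 stood at -0.536, -0.456 and -0.488 in Apo and, lower on each array, at -0.839, -0.601 and -0.538 in IR64 (adjusted p = 0.000714 and 0.000305). Its Arabidopsis namesake inhibits the proton pump of the plasma membrane.

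OsCIPK18/CIPK22 (LOC4338445) stood at -0.857, -0.625 and -0.635 in Apo. In IR64 it was at -0.600 on replicate 1 but at -0.167 and -0.165 on replicates 2 and 3. The Apo call had an adjusted p = 0.00117. The IR64 call, with an adjusted p = 0.0371, was lost whichever of the 6 arrays was left out, for example without IR64 replicate 1 (adjusted p = 0.0836). The IR64 mean of -0.311 became -0.166 without IR64 replicate 1.

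OsCIPK17 was at -0.447, -0.576 and -0.508 in Apo, against -0.462, -0.251 and -0.350 in IR64 (adjusted p = 0.000274 and 0.00155). The other CIPK probes negative in both genotypes, chosen after their values were seen as are the positive ones named next, were OsCIPK1, OsCIPK19, OsCIPK21, OsCIPK32 and a probe of OsCIPK2. OsCIPK1 had the same IR64 pattern as OsCIPK18/CIPK22, with -0.592 on replicate 1 against -0.200 and -0.152, and its IR64 mean of -0.315 became -0.176 without replicate 1. The Apo call of OsCIPK32 (0.0129) was lost without Apo replicate 1 (0.0613) or 2 (0.0692). OsCIPK19 had nearly the same mean in Apo and IR64, -0.352 ± 0.0263 and -0.348 ± 0.0471. OsCIPK20 was called in IR64 alone (mean -0.249 ± 0.0397, adjusted p = 0.00674), with an Apo adjusted p = 0.0527 and an exact 0 on Apo replicate 2. In Apo it was negative too without that array (0.0120) and under a fit with the replicate number as block (0.0275).

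On the positive side, OsCIPK16 had a mean of 0.411 ± 0.132 in IR64 (adjusted p = 0.00513). In Apo it was at 0.0252 on replicate 1 and at 0.320 and 0.317 on the others, and that call (adjusted p = 0.0443) was lost without Apo replicate 2 (0.194) or 3 (0.195) and without IR64 replicate 2 (0.0654) or 3 (0.0668). OsCIPK6 was at 0.327 ± 0.0370 in Apo and 0.184 ± 0.0658 in IR64. OsCIPK25 was at 0.343 ± 0.0490 in Apo, and in IR64 at 0.455 on replicate 1 and 0.168 and 0.132 on the others. Its IR64 mean was 0.252 (adjusted p = 0.0204) with replicate 1 and 0.150 (0.0165) without it, and fitted on the IR64 arrays alone the adjusted p was 0.0862. OsCIPK24, whose Arabidopsis namesake SOS2 is the kinase that SOS3 activates, was at 0.139 ± 0.0173 and 0.121 ± 0.0381 (adjusted p = 0.00785 and 0.0169), on the other side of 0 from OsCBL4 in IR64. Its Apo call was lost without Apo replicate 3 (0.0576) and its IR64 call without IR64 replicate 3 (0.0909). OsCIPK29 was called in Apo alone (0.180 ± 0.0579, adjusted p = 0.00981, and 0.0558 without Apo replicate 1). OsCIPK23, whose Arabidopsis namesake activates the potassium channel AKT1, was called in neither genotype on either of its probes, with means between -0.0311 and 0.0628. OsCIPK12, OsCIPK10, OsCIPK5, OsCIPK26, OsCIPK30 and OsCIPK33 were also called in neither genotype, although with the replicate block OsCIPK12 was negative in Apo (0.0456) and OsCIPK5 in IR64 (0.0307), and without IR64 replicate 1 OsCIPK33 was negative in IR64 (0.0320).

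Probes of the same CIPK gene did not always give the same side. OsCIPK2 (LOC4344287) had 3 probes. Probe 22014 stood at 0.267, 0.230 and 0.162 in Apo and 0.189, 0.0718 and 0.0872 in IR64, positive in both. Probe 5566 stood at -0.141, -0.149 and -0.137 in Apo and -0.211, -0.349 and -0.306 in IR64, negative in both. Probe 5909 was negative in IR64 alone, at -0.166 ± 0.0924, but not without IR64 replicate 2 (0.110) or 3 (0.119). The positive IR64 call was lost whichever array was left out, and the negative Apo call without any of the 3 Apo arrays, so the opposition rested on the positive Apo call of probe 22014 (adjusted p = 0.00321) and the negative IR64 call of probe 5566 (0.00100). Averaged over the 3 probes, OsCIPK2 was at 0.00367 in Apo (0.942) and -0.113 in IR64 (0.0418). No direction for OsCIPK2 as a gene can be given from these probes.

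OsCIPK7 (LOC4333514) had probes that differed in level but not in their order between genotypes. Probe 2561 stood at -0.381, -0.325 and -0.321 in Apo, negative, and at -0.174, 0.00184 and -0.0182 in IR64, not past the threshold. Probe 8326 stood at -0.0813, -0.0279 and -0.0430 in Apo, not past the threshold, and at 0.137, 0.236 and 0.245 in IR64, positive. On each probe all 3 IR64 values lay above all 3 Apo values. Averaged over both probes, the gene was at -0.196 in Apo (0.00479) and 0.0714 in IR64 (0.162).

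The CPK kinases, which sense calcium themselves, had called probes on both sides in both genotypes, with fewer calls in IR64. In Apo 3 of 12 tested probes were positive and 5 negative, or 25.0% and 41.7%, against 24.5% and 25.6% of all tested probes. In IR64 1 was positive and 3 were negative, or 8.33% and 25.0%, against 22.7% and 20.2% of all tested probes. Together 33.3% were called there, against 43.0%, and only the positive share was the lower one. Their genotype means lay between -0.338 and 0.360 in Apo and between -0.207 and 0.214 in IR64. The median absolute ratio over CPK probes was 0.171 in Apo and 0.0902 in IR64, against 0.141 and 0.121 over all tested probes.

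OsCPK20 was the only CPK probe positive in both genotypes. It had 0.368, 0.357 and 0.355 on the Apo arrays (adjusted p = 0.00208), and in IR64 0.383 on replicate 1 against 0.0937 and 0.164 on the others (adjusted p = 0.0210, and 0.0584 without IR64 replicate 3). Its IR64 mean of 0.213 became 0.129 without replicate 1. OsCPK21, reported in rice to act in abscisic acid and salt responses, had 0.113, 0.395 and 0.163 in Apo (adjusted p = 0.0221) and 0.0535, 0.209 and 0.194 in IR64 (0.0889). The Apo call was lost without Apo replicate 2 (0.0865) or 3 (0.0544), and with the replicate block IR64 was positive too (0.0355). OsCPK8 was positive in Apo, at 0.251, 0.202 and 0.207 (adjusted p = 0.00510), with 0.199, 0.0161 and 0.0457 in IR64.

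OsCPK18 had the most negative CPK mean. It stood at -0.513, -0.252 and -0.250 in Apo, a call (adjusted p = 0.0243) that was lost without Apo replicate 1 (0.141), replicate 2 (0.0586) or replicate 3 (0.0574), and at -0.405, 0.00354 and 0.0245 in IR64, where it was called with the replicate block alone (0.0442). OsCPK9, reported in rice to promote drought tolerance, was tightly grouped in Apo at -0.285, -0.299 and -0.293 (adjusted p = 0.00234). In IR64 it was at -0.137 on replicate 1 and at 0.0628 and 0.0719 on the others (adjusted p = 0.997). Probe 8795 of OsCPK6 was negative in both genotypes, at -0.144, -0.256 and -0.197 in Apo and -0.251, -0.0694 and -0.301 in IR64, with an adjusted p = 0.0164 and 0.0170. The Apo call was lost without Apo replicate 2 (0.0870) or 3 (0.0700), and the IR64 call without IR64 replicate 1 (0.0598) or 3 (0.0950). The second OsCPK6 probe, 989, was called in neither, with 0.0416 ± 0.122 and -0.0413 ± 0.0484.

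Both probes of OsCPK17 gave small negative ratios in both genotypes, between -0.103 and -0.0868 as means. These calls, with adjusted p-values from 0.0267 to 0.0351, were each lost on leaving out at least 1 array. OsCPK4, reported in rice to raise tolerance of salt and drought, had 0.0155, 0.0548 and 0.00470 in Apo and -0.0349, -0.0766 and -0.0830 in IR64, not past the threshold in either. OsCPK2 was also called in neither. OsCPK22 had an exact 0 on 4 arrays, with 0.428 on Apo replicate 1 and 0.0591 on IR64 replicate 1.

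The 3 CAM probes were negative on all 6 arrays, as were 24.0% of all tested probes, with genotype means between -0.162 and -0.0420. In each genotype 33.3% of them were called, all negative, against 25.6% negative of all tested probes in Apo and 20.2% in IR64. With 3 probes these shares are not read as a trait of the subfamily. OsCAM3, a calmodulin, stood at -0.240, -0.121 and -0.126 in Apo (adjusted p = 0.00898) and -0.0525, -0.113 and -0.0705 in IR64 (0.117). OsCAM61, which the gene table also lists as CML1, stood at -0.0251, -0.0848 and -0.0866 in Apo (0.143) and -0.0779, -0.173 and -0.163 in IR64 (0.0159, lost without IR64 replicate 2 or 3 at 0.0864 and 0.0863). OsCAM2 was called in neither genotype. Calmodulin genes are near-identical in sequence, and whether these probes tell them apart was not tested.

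The CML sensors held the highest genotype means of the members in both genotypes, 1.34 in Apo and 0.630 in IR64, and, at -0.731, the lowest in IR64. Without IR64 replicate 1 the lowest was that of OsCBL4, at -0.838, with OsCML29 at -0.639, and the highest that of OsCML11, at 0.603. In Apo 7 of 20 probes were positive and 7 negative, or 35.0% each, against 24.5% and 25.6% of all tested probes. In IR64 5 were positive and 8 negative, or 25.0% and 40.0%, against 22.7% and 20.2%. The median absolute ratio over CML probes was 0.297 in Apo and 0.242 in IR64, the largest of the 5 subfamilies, against 0.141 and 0.121 over all tested probes. Since calls were on both sides, their median on the arrays lay only between -0.0735 and 0.0510.

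OsCML15 (LOC4338633) had the highest ratio of all members. It stood at 1.18, 1.46 and 1.39 on the Apo arrays, a mean of 1.34 ± 0.144 or a ratio of 22.0 if the base is 10 (adjusted p = 0.000448). In IR64 it stood at 1.07 on replicate 1 and at 0.353 and 0.361 on replicates 2 and 3 (adjusted p = 0.0160). IR64 replicate 1 therefore lay close to the Apo arrays, and without it the IR64 mean of 0.594 became 0.357, a ratio of 2.28 (adjusted p = 0.0112). Fitted on the IR64 arrays alone, OsCML15 and OsCML16 had an adjusted p = 0.0746 and 0.0630 there.

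OsCML16 (LOC4325693) followed the same order. It had 1.16, 1.27 and 1.26 in Apo (adjusted p = 0.000481) and 1.09, 0.361 and 0.439 in IR64 (0.00980). Without IR64 replicate 1 the IR64 mean of 0.630 became 0.400 (adjusted p = 0.00144). OsCML31 (LOC4325408) had 1.07, 1.06 and 0.977 in Apo (adjusted p = 0.000621) and 0.765, 0.154 and 0.138 in IR64. Its IR64 adjusted p was 0.0523 with all arrays, 0.0426 with the replicate block, and 0.0180 without replicate 1, at a mean of 0.146.

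OsCML29 was the most negative CML probe, at -0.482, -0.618 and -0.548 in Apo and -0.914, -0.605 and -0.673 in IR64 (adjusted p = 0.000583 and 0.000257). Among the CML probes chosen after their values were seen, OsCML24 had -0.522 ± 0.0331 in Apo and -0.489 ± 0.131 in IR64, OsCML10 had -0.523 ± 0.0900 and -0.343 ± 0.166, and OsCML30 had -0.446 ± 0.0177 and -0.327 ± 0.146. OsCML7 and OsCML13 were negative in both with smaller means, between -0.269 and -0.0937, and both IR64 calls were lost without IR64 replicate 2 or 3 and without Apo replicate 3. The IR64 mean of OsCML7, -0.164, became -0.101 without IR64 replicate 1. OsCML8 was positive in both, at 0.409 ± 0.0272 and 0.320 ± 0.0666, as was OsCML3, at 0.339 ± 0.0226 and 0.153 ± 0.0648 (IR64 adjusted p = 0.0123, and 0.0677 without IR64 replicate 2). OsCML11 had a larger mean in IR64, 0.603 ± 0.0480, than in Apo, where replicate 1 was at 0.00941 and the others at 0.392 and 0.434, and its Apo call (adjusted p = 0.0274) was lost without replicate 2 (0.135) or 3 (0.142). OsCML4, reported in rice to promote drought tolerance, was positive in Apo at 0.252 ± 0.0843 (adjusted p = 0.00931, and 0.0556 without Apo replicate 2), with -0.0190 ± 0.126 in IR64.

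OsCML27 had 0.216, 0.0678 and 0.0604 in Apo, not past the threshold (adjusted p = 0.0646), and -0.0919, -0.213 and -0.161 in IR64, negative (0.0272, and not without IR64 replicate 2 or 3, 0.139 and 0.107). With the replicate block it was also positive in Apo (0.0241), so that the genotypes were then called on opposite sides. OsCML20 had -0.276, -0.474 and -0.195 in Apo, negative (adjusted p = 0.00511), and 0.130, 0.0214 and -0.0403 in IR64 (0.649). OsCML18 was negative in IR64 at -0.369 ± 0.139 (adjusted p = 0.00229) and at -0.0972 ± 0.0529 in Apo (0.181, and 0.0397 without IR64 replicate 1). OsCML9, OsCML17, OsCML28 and OsCML32 were called in neither, although OsCML28 was negative in both with the replicate block (0.0156 and 0.0125). OsCML9 had an exact 0 on 3 arrays and OsCML32 on 2.

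The last comparison set the ratios of the 2 genotypes against each other. With limma and all 6 arrays, no member passed the threshold for Apo minus IR64, against 2.02% of all tested probes, and 16 of 68 members had an unadjusted p under 0.05, or 23.5% against 27.4%. With the replicate number as a block, 4 member probes passed, or 5.88%, near the 5.36% of all tested probes. These were OsCIPK18/CIPK22 (difference -0.395, adjusted p = 0.0474), both probes of OsCIPK7 (-0.279 and -0.257, 0.0480 and 0.0451) and OsCML27 (0.270, 0.0450). Without the block their adjusted p-values were 0.131, 0.0651, 0.0534 and 0.0714. The 3 Apo and 3 IR64 values did not overlap for 25 of the 68 members, or 36.8%, against 34.5% of all tested probes.

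Without IR64 replicate 1, 23 members passed the threshold for the difference, or 33.8%, against 33.6% of all tested probes. The members' share was thus near that of the array. With any other array left out, no member passed. IR64 replicate 1 was singled out from these same values because it lay near the Apo arrays. Leaving it out therefore favours a larger difference and keeps only IR64 replicates 2 and 3. The adjusted p-values without it, here and below, are a description and no independent support for a difference. The 23 were 8 CIPK, 4 CPK and 11 CML probes, 13 with a positive and 10 with a negative difference, and no CBL or CAM probe. For 18 of the 23 both genotype means had the same sign, and for 19 the Apo mean was the farther from 0. The same shares over all probes called without that array were not computed, so these counts are not read as a trait of the members. Over all 6 arrays, the Apo mean was farther from 0 for 40 of the 68 members, or 58.8%, against 58.3% of all tested probes.

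The largest differences belonged to the most positive CML genes. For OsCML15 the difference over all arrays was 0.748, with an unadjusted 95% interval from 0.266 to 1.23 and an adjusted p = 0.0945; without IR64 replicate 1 it was 0.985 (adjusted p = 0.00397). OsCML16 had 0.600 (interval 0.151 to 1.05, adjusted p = 0.116) and 0.830 without that array (0.00251). OsCML31 had 0.684 (0.281 to 1.09, adjusted p = 0.0823) and 0.890 (0.00199). All 3 were higher in every Apo array than in every IR64 array.

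Among the kinases, OsCIPK18/CIPK22 went from -0.395 (interval -0.715 to -0.0746) to -0.540 without IR64 replicate 1 (adjusted p = 0.0102), and OsCPK9 from -0.292 (-0.448 to -0.136, adjusted p = 0.0707) to -0.360 (0.00353). OsCPK8 had 0.133 (adjusted p = 0.201) and 0.189 without that array (0.0154). OsCIPK7 had -0.334 on probe 2561 (adjusted p = 0.00526) and -0.292 on probe 8326 (0.00597) without it. OsCML27 had 0.302 (0.0200), and OsCML20 had -0.352 with all arrays (0.0788) and -0.305 without it (0.0543). OsCBL4 had a wide interval for its difference, from -0.0212 to 1.20 around 0.590 (adjusted p = 0.194), and OsCBL9, OsCAM3 and OsCAM61 had adjusted p-values of 0.490, 0.308 and 0.338. A p-value that misses the threshold does not show that the genotypes had equal ratios.

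**Figure D3:**
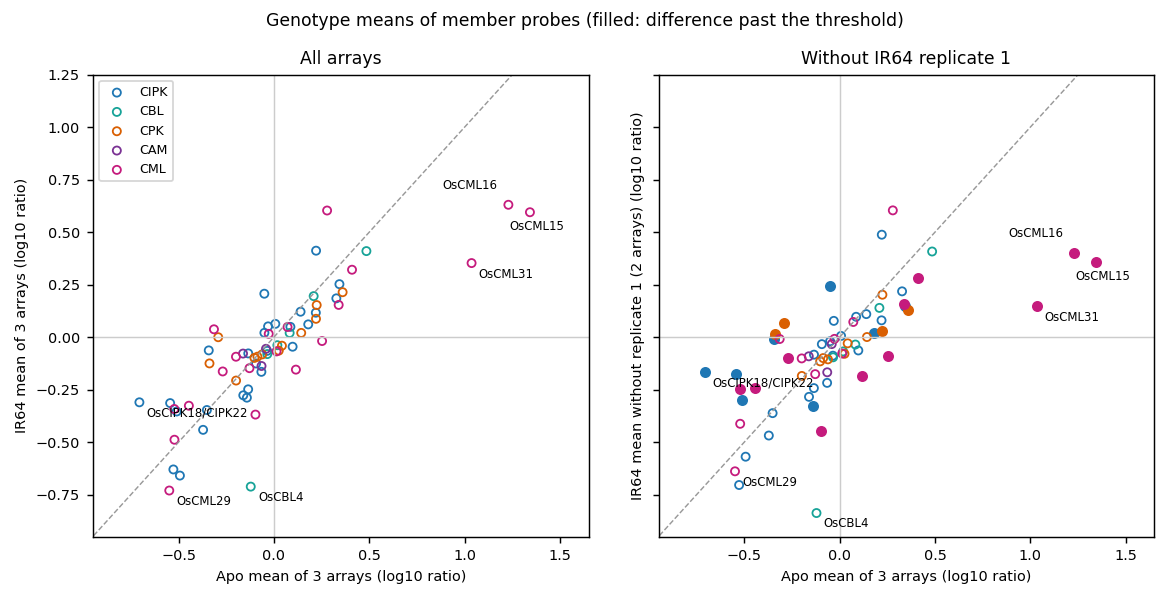
Mean log10 ratio of each tested member probe in Apo (horizontal axis, 3 arrays) against IR64 (vertical axis), with all 3 IR64 arrays on the left and without IR64 replicate 1 on the right, coloured by subfamily, with the dashed line marking equal means. Filled points, 0 on the left and 23 on the right, are probes whose difference passed the threshold; OsCML15, OsCML16 and OsCML31 lie farthest to the right.

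**Figure D4:**
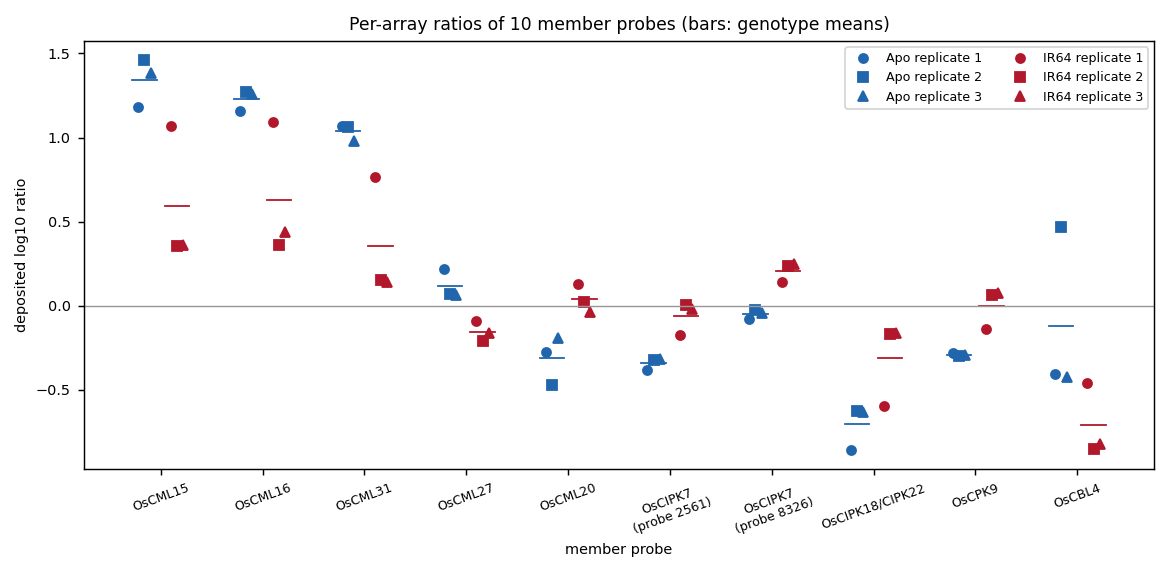
Deposited log10 ratio on each array (vertical axis) for 10 member probes (horizontal axis), Apo in blue and IR64 in red, a marker shape for each replicate number and a short bar at each genotype mean. IR64 replicate 1, the red circle, lies near the Apo values for OsCML15, OsCML16 and OsCIPK18/CIPK22, and OsCBL4 has 1 Apo array at 0.469 while the others are negative.

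Several members lie next to each other in the gene table with no gene between them. OsCIPK32 and OsCML3 are such neighbours and were on opposite sides in both genotypes, at -0.161 and 0.339 in Apo and -0.278 and 0.153 in IR64. OsCIPK29 and OsCIPK2 are neighbours too, and OsCIPK29 at 0.180 in Apo was on the side of OsCIPK2 probe 22014 and not of probe 5566. The neighbouring pairs OsCIPK30 and OsCIPK12, and OsCML9 and OsCAM2, were called in neither genotype.

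Other genes of calcium signalling were taken by name, and their counts are set against 24.5% positive and 25.6% negative of all tested probes in Apo and 22.7% and 20.2% in IR64. For calcium entry and export, 4 of 13 probes were positive and 2 negative in Apo (30.8% and 15.4%), and 5 and 2 in IR64 (38.5% and 15.4%), with median ratios of 0.0649 and 0.0972. The calcium pumps ACA5 and ACA7, which move calcium out of the cytosol, were positive at 0.642 ± 0.0247 and 0.653 ± 0.111 in Apo and 0.398 ± 0.163 and 0.504 ± 0.158 in IR64. A probe of the glutamate receptor-like channel GLR3.1 (20591) was negative at -1.16 ± 0.0757 and -0.756 ± 0.288, but its probes 3570 and 9747 were not past the threshold in either genotype.

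A list of further decoders held 6 probes, 2 positive and 1 negative in Apo (33.3% and 16.7%) and 2 and 2 in IR64 (33.3% each), with medians of 0.0403 and 0.0421. DMI3, the calcium and calmodulin-dependent kinase of root symbiosis, was positive on probe 20573 at 0.160 ± 0.0958 and 0.179 ± 0.0394. Its probe 11682 was not past the threshold in either genotype, at 0.041 ± 0.056 and 0.103 ± 0.156. CRK6 (0.543 ± 0.169 and 0.485 ± 0.0391) and CRK10 (-0.403 ± 0.0560 and -0.127 ± 0.0669) carry a name shared with cysteine-rich receptor-like kinases, and CMT3 that of a DNA methyltransferase, so 3 of the 6 probes may not belong to the pathway.

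Transporters and kinases of families in which CIPK or CPK targets are known had 9 positive and 11 negative probes of 37 in Apo (24.3% and 29.7%) and 8 and 9 in IR64 (21.6% and 24.3%), shares near those of all tested probes, with medians of -0.0166 and -0.0532. The potassium transporter HAK17 was at -1.01 ± 0.0982 and -0.764 ± 0.0777, and the ammonium transporter AMT1-2 at -1.03 ± 0.0331 and -0.563 ± 0.228. Probe 4684 of AMT1 was at -0.919 ± 0.0966 and -0.751 ± 0.0686. The other probe listed as AMT1, 20927, was also negative in both but with smaller ratios, -0.117 ± 0.0156 and -0.143 ± 0.0534. The SnRK2 kinases, which resemble CIPK kinases but need no calcium, had 8 positive and 1 negative probe of 12 in Apo (66.7% and 8.33%) and 7 and 0 in IR64 (58.3% positive). Their medians were 0.369 and 0.289, with SAPK1, SAPK10 and probe 1813 of SAPK4 having the smallest p-values; SAPK10 stood at 0.534 ± 0.0516 and 0.481 ± 0.139, SAPK4 at 0.648 ± 0.0606 and 0.451 ± 0.116, and SAPK1 at 1.26 ± 0.0563 and 0.693 ± 0.165. The CIPK medians beside these were -0.0661 in Apo and -0.0658 in IR64.

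Markers of other cells or states of a leaf sample were few, so their counts are only a description. They are set beside 24.5% positive and 25.6% negative of all tested probes in Apo and 22.7% and 20.2% in IR64. Senescing leaf markers had 4 positive probes of 4 in Apo and 2 in IR64, vascular and secondary wall markers 2 positive and 1 negative of 4 in Apo and 2 and 0 in IR64, root markers 1 and 1 of 5 in Apo and 0 and 3 in IR64, and mesophyll markers 0 and 1 of 2 in each genotype. No probe carried a guard cell marker name. The part of these cells or states in the members' ratios was not tested.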

How the data were processed

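The deposited log10 ratios of 6 two-colour Agilent arrays came from the authors' processing, for which the submitters' processing notes name Agilent Feature Extraction 8.1. Base, sign, dye normalization, background correction and centring of the values are not stated there; the median over all spots was 0.0020 on Apo replicate 1 and 0.0000 on the other 5 arrays. The number of arrays limits the precision.

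Probes were joined to genes through the platform annotation (17839 spots with 1 gene, 21 with several) and the gene table of assembly ASM3414082v1, used for names and gene order only. After 133 annotated probes at 0 on all arrays were left out, 17727 were fitted as deposited with 1 mean per genotype in limma 3.58.1 (R 4.3.3; lmFit, eBayes), with Benjamini-Hochberg adjustment at 0.05. The contrasts were each genotype against 0, their difference and their mean. Errors are SDs over 3 arrays. The script was tested on simulated data. Python 3.11.15, pandas 2.3.3 and matplotlib 3.10.9 made tables and figures.

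A gene with names of several subfamilies was placed in the first of CIPK, CBL, CPK, CAM and CML. Named per subfamily were the 4 called probes with the largest absolute mean over the 6 arrays, the 2 with the smallest p for the difference, probes called for it, and genes whose probes were called on opposite sides. From each pathway list the 3 probes with the smallest p for the mean of both genotypes were named. Members and lists were chosen with earlier results of these data known, so lists are described by counts and medians without a test. Promoter and protein sequences were not used here.

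For each replicate number, residuals of the Apo and IR64 arrays around the genotype means correlated over probes at 0.322, 0.261 and 0.340. Other pairs of arrays gave -0.260 to 0.0166. The residuals of a genotype sum to 0 over its 3 arrays, so positive values for same-numbered arrays push the other pairs down. These values therefore cannot settle whether the numbers pair the arrays. The fit behind the main calls had no replicate term, and the replicate block was an alternative only. The alternatives tried were centring, scaling or quantile normalization, other probe filters, averaging per gene, a robust prior, 1 genotype at a time, leaving out each array, the replicate block, and stricter thresholds.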

Additional observations from a re-analysis of the deposited data

Results flagged for a closer look

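A difference between the genotypes was flagged for 6 member probes under either of 2 criteria, and none of the 6 passed the threshold in the main fit. Under the first, a difference past the threshold with the replicate number as a block, 4 members or 5.88% passed, near the 5.36% of all tested probes. Under the second, all Apo arrays on one side of 0 and all IR64 arrays on the other, there were also 4 or 5.88%, against 4.05%. With the block, the difference Apo minus IR64 passed the threshold for OsCIPK18/CIPK22 (-0.395, limma adjusted p = 0.0474), OsCIPK7 on probe 2561 (-0.279, adjusted p = 0.0480) and probe 8326 (-0.257, adjusted p = 0.0451), and OsCML27 (0.270, adjusted p = 0.0450). Every Apo array lay on one side of 0 and every IR64 array on the other for OsCIPK7 probe 8326, OsCML27, OsCIPK30 and OsCPK4. Without the block, the difference of OsCIPK30 was 0.144 (adjusted p = 0.186) and that of OsCPK4 0.0898 (adjusted p = 0.207), neither past the threshold. OsCIPK7 probe 8326 and OsCML27 then had an adjusted p = 0.0534 and 0.0714, and OsCIPK18/CIPK22 and OsCIPK7 probe 2561 had 0.131 and 0.0651.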

How the results depend on the processing

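The number of members called was 41 in Apo, 38 in IR64, 0 for the difference and 50 for the mean of both genotypes. With arrays left out one at a time it ranged from 32 to 42 in Apo and 25 to 38 in IR64. It ranged from 0 to 23 for the difference and 43 to 51 for the mean. The 23 was the count without IR64 replicate 1, and 25 that without IR64 replicate 3. As shares of the members these ranges were 47.1% to 61.8%, 36.8% to 55.9%, 0% to 33.8% and 63.2% to 75.0%. Over all tested probes the shares moved too, over 37.5% to 57.4%, 28.6% to 47.7%, 0% to 33.6% and 49.25% to 61.5%. With a minimum of 2-fold, if the base is 10, the counts were 23 in Apo, 19 in IR64 and 19 for the mean. In IR64 the count was 20, or 29.4% of members, both at an adjusted p under 0.01, against 25.7% of all tested probes, and when only the IR64 arrays were fitted, against 30.1%. For the difference it was 4 under the replicate block and 1 when probes at 0 on any array were left out, or 1.56% against 2.69%. The block moved no other count by over 1.5 times. The mean of the CIPK medians on the 3 IR64 arrays, -0.0628, which differs from the median of the probes' IR64 means given above, moved to -0.0663 with scaled arrays and -0.0680 with quantile normalization, by more than the spread between arrays. The same measure lay near 0 and changed sign for CBL in IR64 (-0.00976, and 0.00697 and 0.0159 without IR64 replicate 2 or 3) and CML in Apo (0.00569, and -0.0170 without Apo replicate 3), and for CPK in IR64 went from -0.0283 to -0.00700 with probes averaged per gene. Called values changed sign under that averaging alone: OsCIPK2 probe 5566 in Apo (gene average 0.00367), OsCIPK2 probe 22014 in IR64 (-0.113) and for the mean of both genotypes (-0.0546), and OsCIPK7 probe 8326 for that mean (-0.0625). The causes were not tested, beyond the smaller number of arrays where some were left out. Intensities were not used, so a limit from signal over background is unknown.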
